A study of Mus musculus with 9 samples.

Results

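Mitochondrial ribosomal protein genes were examined in a transcriptome series of 8-cell mouse embryos. Members were all entries whose symbol is Mrpl or Mrps followed by a number and, in a few cases, a letter from a to c. The rule gave 78 of the 55335 entries listed, 49 named Mrpl for the large subunit and 29 named Mrps for the small subunit. The rule reads symbols alone and uses no measured value, and all 78 members passed the filter on low values. The embryos came from ICR mice by in vitro fertilization, and early zygotes were injected with siRNA and cultured to the 8-cell stage. The injected siRNA was nontargeting for the control group. It was directed at Mfn1 for the MFN1-KD group. For the H3.3-KD group, siRNAs to both H3f3a and H3f3b, the genes that encode the histone H3.3 protein, were injected. Each group had 3 libraries, and each library pooled 5 to 10 embryos amplified with oligo-dT primers by Smart-Seq2, so differences between single embryos or blastomeres are averaged. The labels do not say whether libraries of a group came from separate injections, and p-values measure only the spread between these libraries. Levels are given in FPKM, a unit scaled to sequencing output and corrected for transcript length. The values are shares of a library's total, and in bulk samples fewer cells of a type and less RNA per cell cannot be told apart.

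The mitochondrial ribosome, or mitoribosome, translates the mRNAs of the mitochondrial genome, which encode core subunits of the respiratory chain and of the ATP synthase. Its rRNAs are transcribed from mitochondrial DNA, whereas every protein component is encoded in the nucleus, made in the cytosol and imported. The large subunit joins amino acids and passes the chain through an exit tunnel, and the small subunit binds the mRNA and reads its codons. Many members have a counterpart in the bacterial ribosome, and the rest were acquired in the mitochondrial lineage. The letter in a symbol does not always match the structure. Mrps18a and Mrps30 encode proteins of the large subunit, and the Mrps36 product is now known as a component of the alpha-ketoglutarate dehydrogenase complex.

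The targeted mRNAs were low in the libraries of their own knockdown. Mfn1 was at 51.57, 22.55 and 23.77 FPKM in control and at 9.54, 4.40 and 1.15 FPKM in MFN1-KD libraries. H3f3a was at 1594 to 2110 FPKM in control and at 117 to 170 FPKM in H3.3-KD, and H3f3b at 2895 to 3166 and 171 to 311 FPKM. Of the 6 preimplantation embryo markers, such as Pou5f1 and Klf5, 5 reached 1 FPKM in every control and every H3.3-KD library and 4 in every MFN1-KD library. They summed to 82.1 to 139 FPKM in control, 139 to 155 FPKM in MFN1-KD and 245 to 630 FPKM in H3.3-KD libraries. The 8 cumulus and granulosa cell markers summed to 1.11 to 1.88 FPKM in control, 2.61 to 4.87 FPKM in MFN1-KD and 3.86 to 9.25 FPKM in H3.3-KD libraries, and Fshr was at 0 in all of them. Of these 8, 1 reached 1 FPKM in every library of each group. Kitl held the highest value, at up to 1.83 FPKM in control, 3.77 FPKM in MFN1-KD and 8.01 FPKM in H3.3-KD. The part of the markers in the results below was not tested. Read depth is unknown, because the files hold no counts. MFN1-KD replicate 3 had the fewest genes above 0, at 15577, against 19250 to 24820 in the other libraries.

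In control embryos all members were expressed, at a median of 93.8 FPKM against 6.43 FPKM over the 13011 genes tested. The median was 124 FPKM for large subunit genes and 71.0 FPKM for small subunit genes. Mrpl22, whose product lines the exit tunnel, had the highest level, at 685.18, 790.74 and 822.86 FPKM, followed in the large subunit by Mrpl20 and Mrpl33 with control means of 507 ± 66.1 and 474 ± 88.0 FPKM (SD, n = 3). The highest small subunit genes were Mrps18c, Mrps18b and Mrps21, at 508 ± 75.8, 482 ± 60.2 and 356 ± 68.1 FPKM. Mrpl20 and Mrpl33, and Mrps18c and Mrps18b, differed from each other by less than their SD, whereas Mrpl22 stood above and Mrps21 below them by more. At the low end stood Mrps27 with 8.91 ± 2.41 FPKM, Mrps2 with 12.4 ± 3.50 FPKM, Mrpl19 with 13.2 ± 10.0 FPKM and Mrpl38 with 14.2 ± 2.76 FPKM. Neighbours among these low genes differed by less than or about their SD.

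The FPKM of all members were summed in each library. The sums were 9848, 11100 and 12037 FPKM in control, 9222, 9282 and 7095 FPKM in MFN1-KD, and 7853, 7303 and 5529 FPKM in H3.3-KD libraries. No knockdown library reached the lowest control sum. As a share of the library total, members made up 0.882% ± 0.0226 in control, 0.731% ± 0.124 of MFN1-KD and 0.723% ± 0.118 of H3.3-KD libraries (SD, n = 3). Large subunit genes summed to 2.08 ± 0.0356 times the small subunit genes in control, 1.91 ± 0.184 times in MFN1-KD and 2.21 ± 0.0885 times in H3.3-KD. The lowest library of each knockdown was replicate 3, which held the lowest value of its group for 58 of 78 members in MFN1-KD and for 62 of 78 in H3.3-KD. In the map of all members by library, this shows as a darker last column in each knockdown block. In control, replicate 1 held the lowest value for 46 of 78 members. Such counts were not made over all genes.

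**Figure D1:**
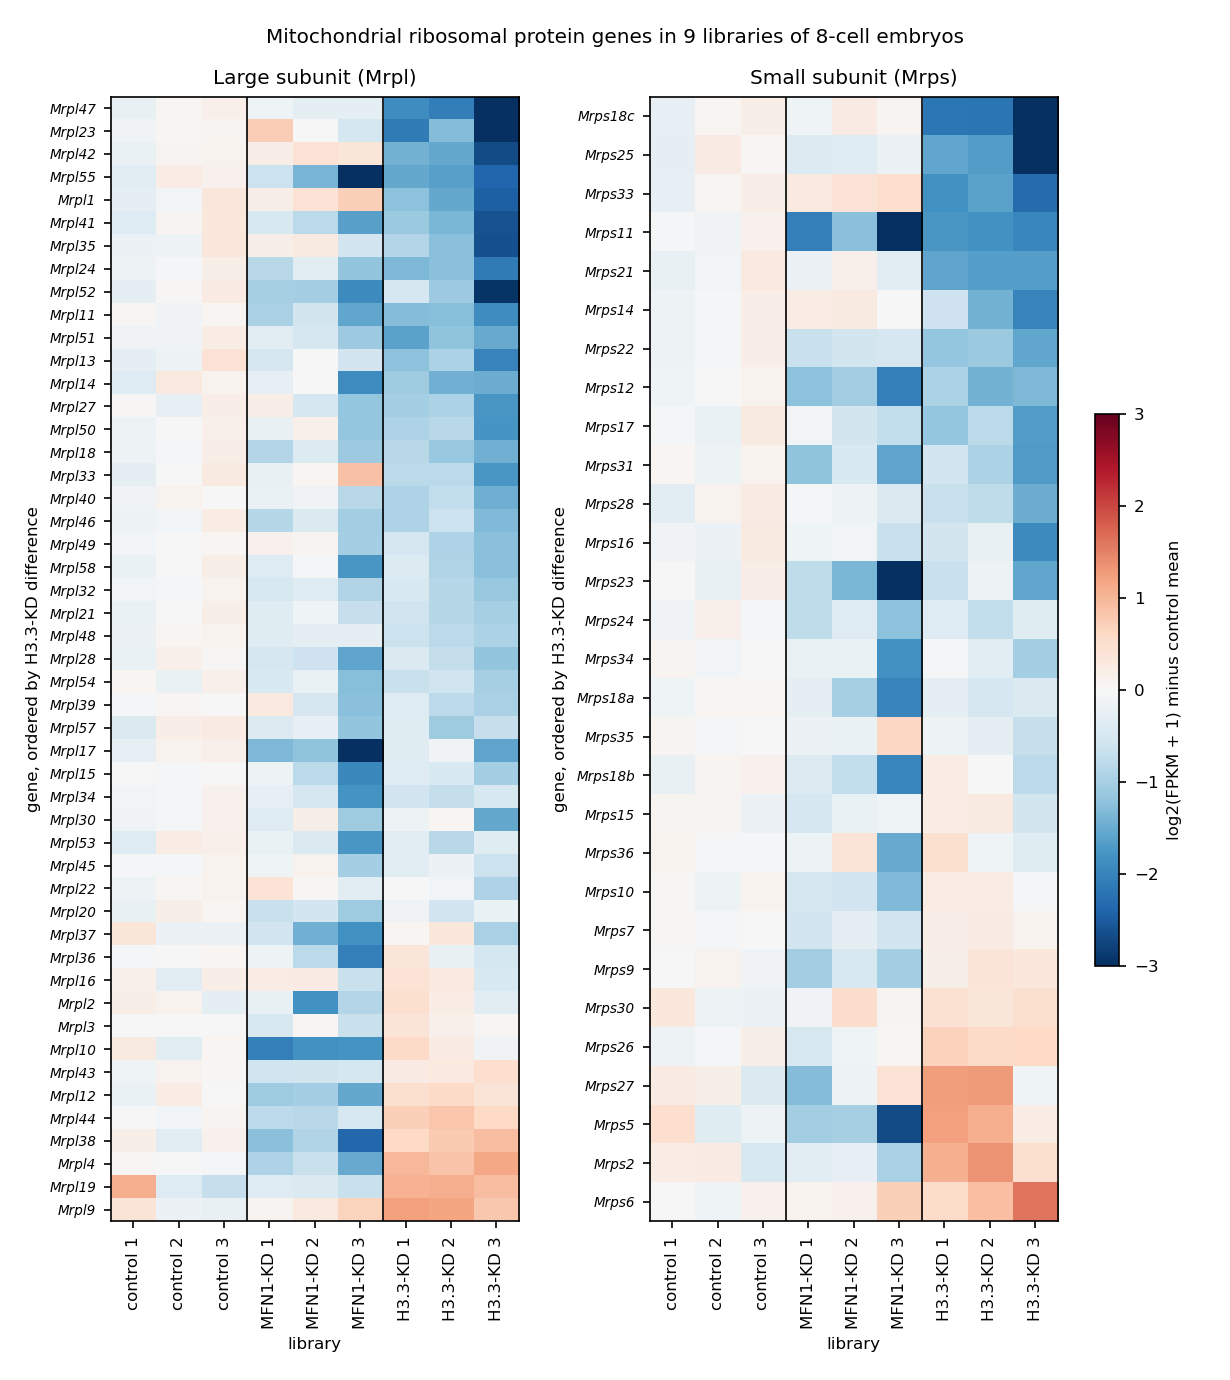
Each row is 1 of the 78 genes and each column 1 of the 9 libraries, with colour for log2(FPKM + 1) minus the control mean, from -3 (blue) to 3 (red). Both knockdowns are mostly blue, with different rows darkest in each, and several rows near the bottom, such as Mrpl4 and Mrpl12, are blue in MFN1-KD and red in H3.3-KD.

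The first comparison asked how the members stood in embryos with reduced Mfn1 mRNA, which encodes a GTPase of the outer mitochondrial membrane that fuses mitochondria. In MFN1-KD embryos, 5 members fell and none rose at an adjusted p under 0.05 (limma, adjusted over all 13011 genes). They were Mrpl10, Mrpl12 and Mrpl4 in the large subunit and Mrps12 and Mrps11 in the small subunit. These 5 are 6.41% of the members, whereas 2.2% of all genes tested were lower and 1.15% were higher by the same rule. Among the 5316 other genes tested with control levels in the members' own range, 4.04% were lower, so the share of members called was close to that of genes at similar levels. A more even pattern was seen below the threshold. The log2 fold change was below 0 for 66 of 78 members, with a median of -0.56 against -0.08 over all genes and -0.23 over the genes at similar levels. At the study's own criterion, a change over 2-fold with an unadjusted p under 0.05, 17 members were downregulated and 0 upregulated, where 9.05% and 5.02% of all genes tested passed. In 36 members all MFN1-KD libraries lay below all controls and in 2 above, against 16.8% and 11.4% of all genes. The genes at similar levels gave 13.6% down at the study's criterion and 25.8% with all MFN1-KD libraries below control, where members gave 21.8% and 46.2%.

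Mrpl10 had the smallest p of the large subunit. Its protein forms the base of the stalk that recruits translation factors. The gene spans chr11:97041560-97049213 on the plus strand (GENCODE, mm10 coordinates), and its exons overlap those of Gm11574 on the other strand. It was at 23.37, 15.20 and 19.89 FPKM in control, at 3.86, 4.74 and 4.86 FPKM in MFN1-KD and at 29.28, 22.92 and 17.79 FPKM in H3.3-KD libraries. The MFN1-KD values lay close together and far below every other library, whereas control and H3.3-KD overlapped. The log2 fold change was -1.89 ± 0.29 (SE, adjusted p = 0.0283) in MFN1-KD and 0.24 ± 0.29 (adjusted p = 0.568) in H3.3-KD. Mrpl12 encodes the stalk protein that Mrpl10 anchors, and the exons of Mrpl12 overlap those of Gm16755 on the other strand. It was at 154.54, 208.35 and 177.56 FPKM in control, at 85.07, 87.08 and 60.84 FPKM in MFN1-KD and at 250.55, 267.04 and 233.95 FPKM in H3.3-KD. The 3 groups did not overlap, with MFN1-KD lowest and H3.3-KD highest. Its log2 fold change in MFN1-KD was -1.21 ± 0.22 (adjusted p = 0.0333), and in H3.3-KD 0.48 ± 0.22 (adjusted p = 0.117). Mrpl4, a protein of the exit tunnel, was at 96.52, 93.26 and 92.11 FPKM in control, 49.16, 58.28 and 32.24 FPKM in MFN1-KD, and 188.29, 170.59 and 209.57 FPKM in H3.3-KD. It was the only member called in opposite directions, at -1.04 ± 0.24 (adjusted p = 0.0479) in MFN1-KD and 1.00 ± 0.24 (adjusted p = 0.0111) in H3.3-KD. The first call passed in 5 of 18 alternatives and the second in 16 of 18, and the H3.3-KD value was 0.30 at its lowest (adjusted p = 0.357 at its highest). The next members by p, Mrpl38 of the central protuberance and Mrpl17, had adjusted p of 0.059 and 0.0721 and log2 fold changes of -1.51 and -1.89.

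In the small subunit, Mrps12 encodes a protein at the decoding centre. It was at 64.92, 71.26 and 76.85 FPKM in control, at 29.75, 33.98 and 16.26 FPKM in MFN1-KD and at 36.38, 25.90 and 27.09 FPKM in H3.3-KD. Both knockdowns lay below control without overlap and overlapped each other, with log2 fold changes of -1.44 ± 0.30 (adjusted p = 0.0382) and -1.24 ± 0.30 (adjusted p = 0.0106). Mrps11, of the platform, was at 50.38, 47.94 and 56.84 FPKM in control, 11.62, 20.92 and 2.49 FPKM in MFN1-KD and 14.61, 14.00 and 12.57 FPKM in H3.3-KD. It was lower in both, by -2.41 ± 0.54 (adjusted p = 0.0453) and -1.84 ± 0.54 (adjusted p = 0.026) on the log2 scale, and its MFN1-KD libraries were far more spread. The exons of Mrps11 overlap those of Mrpl46 on the opposite strand, and whether strand was used in counting is not given in the sources used here, so reads of the shared stretch cannot be assigned to either. Mrps24, Mrps9 and Mrps23 followed, with log2 fold changes of -0.80, -0.84 and -1.73 and adjusted p of 0.0931, 0.0802 and 0.0988. Highest in the small subunit were Mrps33, at 0.41 ± 0.23 (adjusted p = 0.312), and Mrps6, at 0.32 ± 0.29 (adjusted p = 0.549). In the large subunit Mrpl1, of the stalk that moves the spent tRNA, and Mrpl9 stood highest, at 0.44 ± 0.34 (adjusted p = 0.468) and 0.35 ± 0.26 (adjusted p = 0.45).

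The 5 calls in MFN1-KD depended on the fit, and 0 of them passed under each of the 18 alternatives. No member was lower with the 6 libraries of MFN1-KD and control alone, with no filter, or without control replicate 1, control replicate 2, control replicate 3 or H3.3-KD replicate 2. The calls over all genes went with them, to 0 lower genes with 6 libraries (2724 at an unadjusted p under 0.05 in either direction), 2 of 32672 with no filter, 37 without control replicate 1, 0 without control replicate 2 or control replicate 3 and 1 without H3.3-KD replicate 2. The count was 1 without H3.3-KD replicate 1, 3 without H3.3-KD replicate 3 and also 3 without MFN1-KD replicate 3. Over all genes, 30, 230 and 180 were lower in the same order. Without MFN1-KD replicate 2, 8 members and 517 of all genes were lower. Upper-quartile scaling, which moved the median of all genes in MFN1-KD from -0.08 to -0.44, gave 22 members and 1084 of all 13011 genes. The criterion of the study gave 11 downregulated members without MFN1-KD replicate 3, and 724 of all 13011 genes.

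The promoters of the 2 genes with the smallest p in MFN1-KD, 1 per subunit, are given here because both genes fell. Each run holds 250 bases before and 50 after the RefSeq start (GRCm38.p6), 5′ to 3′ on the gene's strand. Capitals mark matches to the motifs described below, in either orientation. The Mrpl10 window is chr11:97041332-97041631 on the plus strand, with a match to the NRF1 core 134 bases before the start. The Mrps12 window is chr7:28741772-28742071 on the minus strand and holds a YY1 match and, at the start itself, an ETS match.
Mrpl10: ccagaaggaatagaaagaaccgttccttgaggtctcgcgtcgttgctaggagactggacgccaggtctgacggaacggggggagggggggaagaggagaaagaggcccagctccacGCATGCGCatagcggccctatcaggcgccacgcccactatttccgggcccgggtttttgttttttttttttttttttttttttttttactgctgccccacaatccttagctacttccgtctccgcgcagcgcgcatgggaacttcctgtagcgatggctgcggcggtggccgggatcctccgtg
Mrps12: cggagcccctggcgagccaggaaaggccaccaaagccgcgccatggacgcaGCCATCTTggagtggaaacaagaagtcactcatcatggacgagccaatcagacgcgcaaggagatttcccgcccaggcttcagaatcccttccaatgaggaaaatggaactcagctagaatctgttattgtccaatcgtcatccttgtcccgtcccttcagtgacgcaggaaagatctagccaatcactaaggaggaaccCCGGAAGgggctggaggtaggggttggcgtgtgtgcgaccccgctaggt

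The second comparison addressed embryos depleted of histone H3.3, the replication-independent histone that is laid down at active genes. Here 31 members fell and 4 rose at an adjusted p under 0.05. The share that fell was 39.7% of members, against 9.12% of all genes tested and 15.7% of the other genes with control levels in the members' range. The share that rose was 5.13%, against 21.8% of all genes tested and 20.1% of those at similar levels. In the large subunit 20 fell and 3 rose, and in the small subunit 11 fell and 1 rose. The median log2 fold change was -0.74, while the median of all genes tested was 0.26. By the criterion of the study, 28 members were downregulated and 3 upregulated, where 9.39% and 23.9% of all genes passed. All H3.3-KD libraries lay below all controls for 45 members and above for 13, against 18.9% and 34.5% of all genes. The count of members that fell was 18 without control replicate 3, where 669 of all 13011 genes fell. Of the main calls, 17 of the 31 that fell and 0 of the 4 that rose passed under each of the 18 alternatives tried.

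The largest fall in the large subunit was that of Mrpl47, a protein at the mouth of the exit tunnel. Its exons span chr3:32725397-32737605 on the minus strand and overlap Actl6a and Ndufb5 on the other strand. It was at 126.26, 153.80 and 163.89 FPKM in control, at 133.43, 119.00 and 118.92 FPKM in MFN1-KD and at 39.40, 34.28 and 17.62 FPKM in H3.3-KD. Only the H3.3-KD libraries stood apart, at -2.31 ± 0.29 on the log2 scale (adjusted p = 0.000431). Mrpl42, which has no bacterial counterpart, was at 257.99, 315.80 and 322.15 FPKM in control, 343.05, 401.99 and 385.67 FPKM in MFN1-KD and 110.88, 101.26 and 45.41 FPKM in H3.3-KD. It fell by 1.88 ± 0.31 on the log2 scale in H3.3-KD (adjusted p = 0.00161) and all MFN1-KD libraries lay above all controls (0.34 ± 0.31, adjusted p = 0.547). Mrpl1 went from 37.33, 42.29 and 57.21 FPKM in control to 18.49, 14.95 and 7.41 FPKM in H3.3-KD, and was at 50.93, 61.05 and 74.27 FPKM in MFN1-KD. Against control, H3.3-KD differed by -1.74 ± 0.34 on the log2 scale (adjusted p = 0.00391). Mrpl51 and Mrpl11, the latter at the base of the stalk, completed the 5 with the smallest p, at -1.44 ± 0.24 (adjusted p = 0.00187) and -1.47 ± 0.30 (adjusted p = 0.00455). Mrpl58, a peptidyl-tRNA hydrolase built into the ribosome, had -0.85 ± 0.40 (adjusted p = 0.132) in H3.3-KD and -0.72 ± 0.40 (adjusted p = 0.312) in MFN1-KD.

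The large subunit genes that rose in H3.3-KD were Mrpl4, Mrpl9 and Mrpl44, the last chosen after its values were seen. Mrpl9 was at 73.25, 49.29 and 47.46 FPKM in control and at 131.02, 127.94 and 97.44 FPKM in H3.3-KD (1.07 ± 0.26, adjusted p = 0.0107). Mrpl44, which has a ribonuclease fold, was at 41.56, 39.32 and 44.00 FPKM in control and 69.44, 74.64 and 63.65 FPKM in H3.3-KD (0.72 ± 0.22, adjusted p = 0.0293). Mrpl19, a low gene, stood at 24.71, 8.29 and 6.52 FPKM in control and at 24.01, 25.02 and 22.22 FPKM in H3.3-KD, so that 1 control library overlapped (adjusted p = 0.0885). The small subunit gene that rose was Mrps6, at 83.32, 77.35 and 92.39 FPKM in control and at 123.10, 157.72 and 256.59 FPKM in H3.3-KD (1.01 ± 0.29, adjusted p = 0.024). Its exons overlap those of Slc5a3 on the same strand. Under median-ratio scaling 1 member was higher, and under upper-quartile scaling also 1. Without control replicate 2 or control replicate 3, 1 member was higher. There were 2 without H3.3-KD replicate 2, and 7 when MFN1-KD replicate 3 was left out. Over all genes, 2118, 2257, 1841, 1763, 2071 and 3441 were higher in the same order, against 2841 in the main fit.

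The largest fall among all members was that of Mrps18c, the successor of bacterial protein S18 at its site in the small subunit. The gene is at chr5:100798627-100804471 on the plus strand, and its exons overlap those of Gm43511 on the same strand. It was at 425.20, 525.62 and 573.72 FPKM in control, at 460.93, 597.51 and 530.45 FPKM in MFN1-KD and at 110.63, 110.45 and 51.84 FPKM in H3.3-KD. All H3.3-KD libraries lay far below the other 6, which overlapped. The log2 fold change was -2.54 ± 0.29 (adjusted p = 0.000278) in H3.3-KD and 0.06 ± 0.29 (adjusted p = 0.932) in MFN1-KD. Neither paralog passed the test. Mrps18b, another small subunit protein, was at 412.68, 507.09 and 524.73 FPKM in control, 361.92, 285.24 and 121.67 FPKM in MFN1-KD and 558.03, 481.80 and 275.45 FPKM in H3.3-KD, with log2 fold changes of -1.04 ± 0.39 (adjusted p = 0.15) and -0.19 ± 0.39 (adjusted p = 0.749). Mrps18a, whose protein sits in the large subunit, was at 113.05, 129.51 and 129.93 FPKM in control, 100.40, 62.03 and 30.91 FPKM in MFN1-KD and 101.75, 87.07 and 91.15 FPKM in H3.3-KD, with -1.09 ± 0.36 (adjusted p = 0.108) and -0.41 ± 0.36 (adjusted p = 0.414). All H3.3-KD libraries lay below all controls for Mrps18a and overlapped them for Mrps18b. The difference between paralogs was not tested.

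Next by p came Mrps33, at 280.50, 347.86 and 382.22 FPKM in control, 409.95, 447.29 and 477.43 FPKM in MFN1-KD and 94.46, 109.28 and 66.81 FPKM in H3.3-KD. The groups did not overlap, with MFN1-KD highest, and the fall in H3.3-KD was -1.91 ± 0.23 on the log2 scale (adjusted p = 0.000314). Mrps21 was at 302.54, 332.64 and 432.69 FPKM in control and at 116.85, 110.70 and 111.84 FPKM in H3.3-KD, a very tight group (-1.63 ± 0.21, adjusted p = 0.000462). Mrps22 and Mrps25, both without a bacterial counterpart, fell by 1.27 ± 0.21 and 2.21 ± 0.44 on the log2 scale (adjusted p = 0.0017 and 0.00422). Mrps2, at 0.97 ± 0.35 (adjusted p = 0.058), stood highest after Mrps6. The members placed elsewhere by structure, Mrps30 and Mrps36, had 0.43 ± 0.26 (adjusted p = 0.235) and -0.01 ± 0.45 (adjusted p = 0.998).

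**Figure D2:**
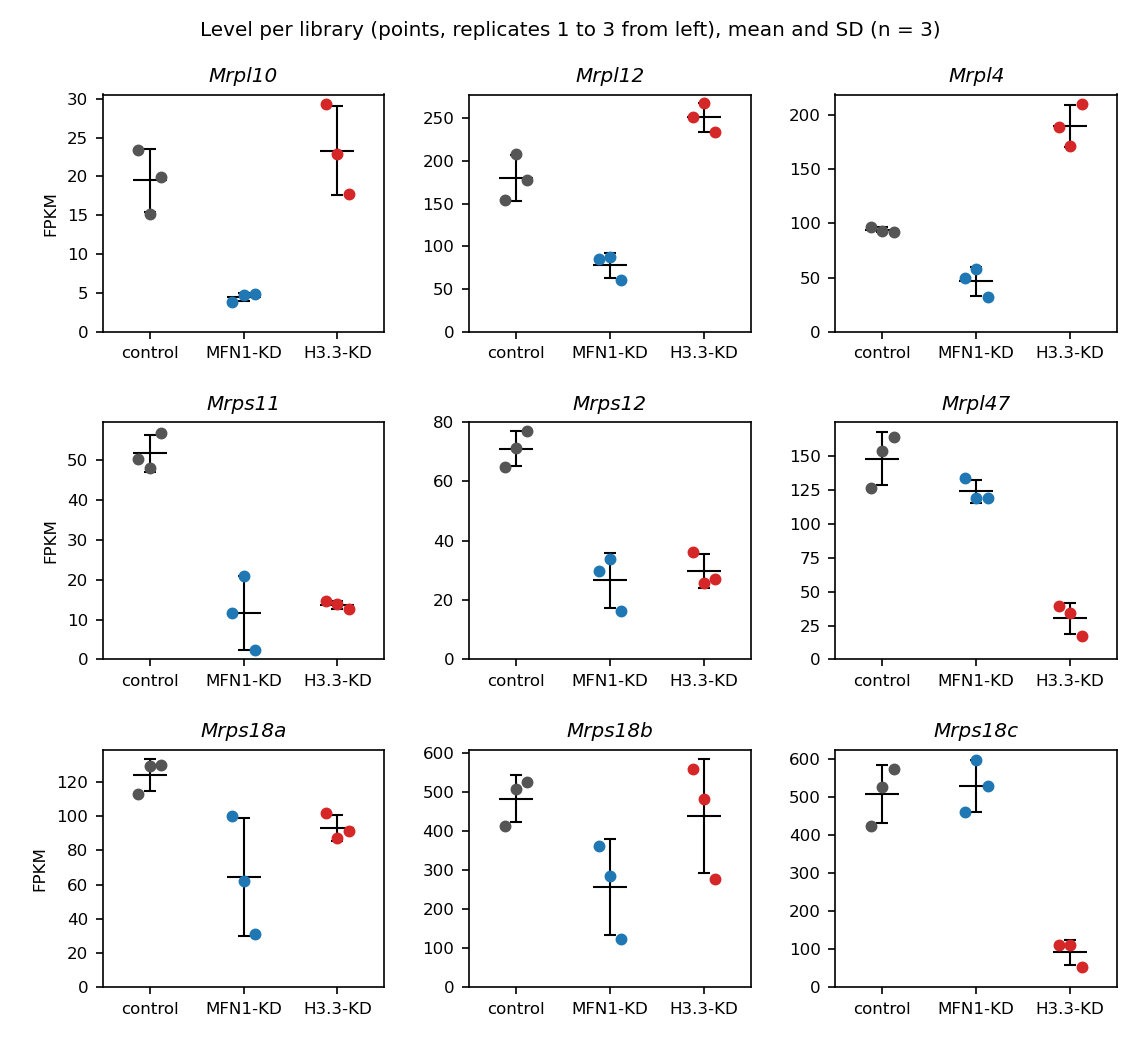
FPKM of 9 genes in each library (points), with group mean and SD (n = 3). Mrpl10, Mrpl12 and Mrpl4 are low in MFN1-KD only, Mrps11 and Mrps12 in both knockdowns, and Mrpl47 and Mrps18c in H3.3-KD only, while Mrps18a and Mrps18b are lowest in MFN1-KD replicate 3.

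The promoters of the genes with the smallest p in H3.3-KD, 1 per subunit, are shown in the same way. The Mrpl47 window is chr3:32736706-32737005 on the minus strand, and its RefSeq start lies 850 bases from the GENCODE start used for the gene span. None of the 4 motifs searched is in it. The Mrps18c window is chr5:100798509-100798808 on the plus strand, with an ETS match 156 bases before the start.
Mrpl47: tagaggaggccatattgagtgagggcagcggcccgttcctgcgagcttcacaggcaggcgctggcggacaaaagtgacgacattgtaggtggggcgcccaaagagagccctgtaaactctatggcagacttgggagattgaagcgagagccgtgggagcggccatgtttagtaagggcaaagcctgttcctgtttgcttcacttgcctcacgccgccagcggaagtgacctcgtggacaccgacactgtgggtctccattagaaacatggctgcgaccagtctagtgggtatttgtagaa
Mrps18c: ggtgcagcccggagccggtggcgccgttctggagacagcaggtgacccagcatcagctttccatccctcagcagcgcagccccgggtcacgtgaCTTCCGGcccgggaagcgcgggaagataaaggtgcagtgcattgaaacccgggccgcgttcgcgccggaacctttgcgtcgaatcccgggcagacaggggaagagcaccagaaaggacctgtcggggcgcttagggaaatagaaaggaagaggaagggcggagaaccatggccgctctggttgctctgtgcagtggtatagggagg

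The knockdowns share their control libraries, so their fold changes are not independent of each other. They were compared directly, H3.3-KD against MFN1-KD, which uses no control library in the contrast. In this comparison 16 members were lower in H3.3-KD and 15 were higher, at an adjusted p under 0.05. These are 20.5% and 19.2% of members, against 11.0% and 27.6% of all genes tested. Of the other genes with control levels in the members' range, 15.9% were lower and 28.0% higher. In a narrower band, 45.7 to 179 FPKM in control, 18.4% of members and 18.4% of other genes were lower. Higher in this band were 18.4% of members and 27.9% of other genes. The share of lower members was thus above that of other genes in the whole range and close to it in this band. Against control, the same band gave 7.89% of members and 6.08% of other genes lower in MFN1-KD, and 47.4% and 20.1% in H3.3-KD. All H3.3-KD libraries lay below all MFN1-KD libraries for 18 members and above for 15, against 14.8% and 33.1% of all genes. The median of the members was -0.01, that of all genes 0.39 and that of the other genes in the members' range 0.25. Lower in H3.3-KD were 8 genes of each subunit, all 16 of them among the 31 that fell against control. Both comparisons use the same H3.3-KD libraries, so such an overlap is in part built in. Over all genes, 1437 were lower in the direct comparison and 1187 against control, and their overlap was not counted. Mrps33 had the smallest p (-2.32 ± 0.23, adjusted p = 7.64e-05), followed by Mrps18c (-2.60 ± 0.29, adjusted p = 0.000151) and, in the other direction, Mrpl4 (2.04 ± 0.24, adjusted p = 0.000201). Mrpl42, Mrpl1, Mrpl47 and Mrps21 were also lower in H3.3-KD, by 2.22, 2.18, 2.06 and 1.52 on the log2 scale in size (adjusted p = 0.00045, 0.000834, 0.00049 and 0.000421). Higher in H3.3-KD were 9 large and 6 small subunit genes, among them the stalk genes Mrpl10 (2.13 ± 0.29, adjusted p = 0.000432) and Mrpl12 (1.69 ± 0.22, adjusted p = 0.00029), Mrpl38 (2.27 ± 0.38, adjusted p = 0.00122) and Mrps9 (1.13 ± 0.24, adjusted p = 0.00445). Mrps5, named here after its value was seen, had the largest difference in this direction, at 5.35, 5.55 and 1.02 FPKM in MFN1-KD and 29.61, 26.62 and 14.10 FPKM in H3.3-KD (2.42 ± 0.50, adjusted p = 0.00369). Of these calls, 10 lower and 8 higher members passed under each of the 18 alternatives. Median-ratio scaling gave 25 lower and 9 higher members, and upper-quartile scaling 10 and 18. Over all genes, the first gave 2120 lower and 2720 higher and the second 964 and 4152, against 1437 and 3591 in the main fit.

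**Figure D3:**
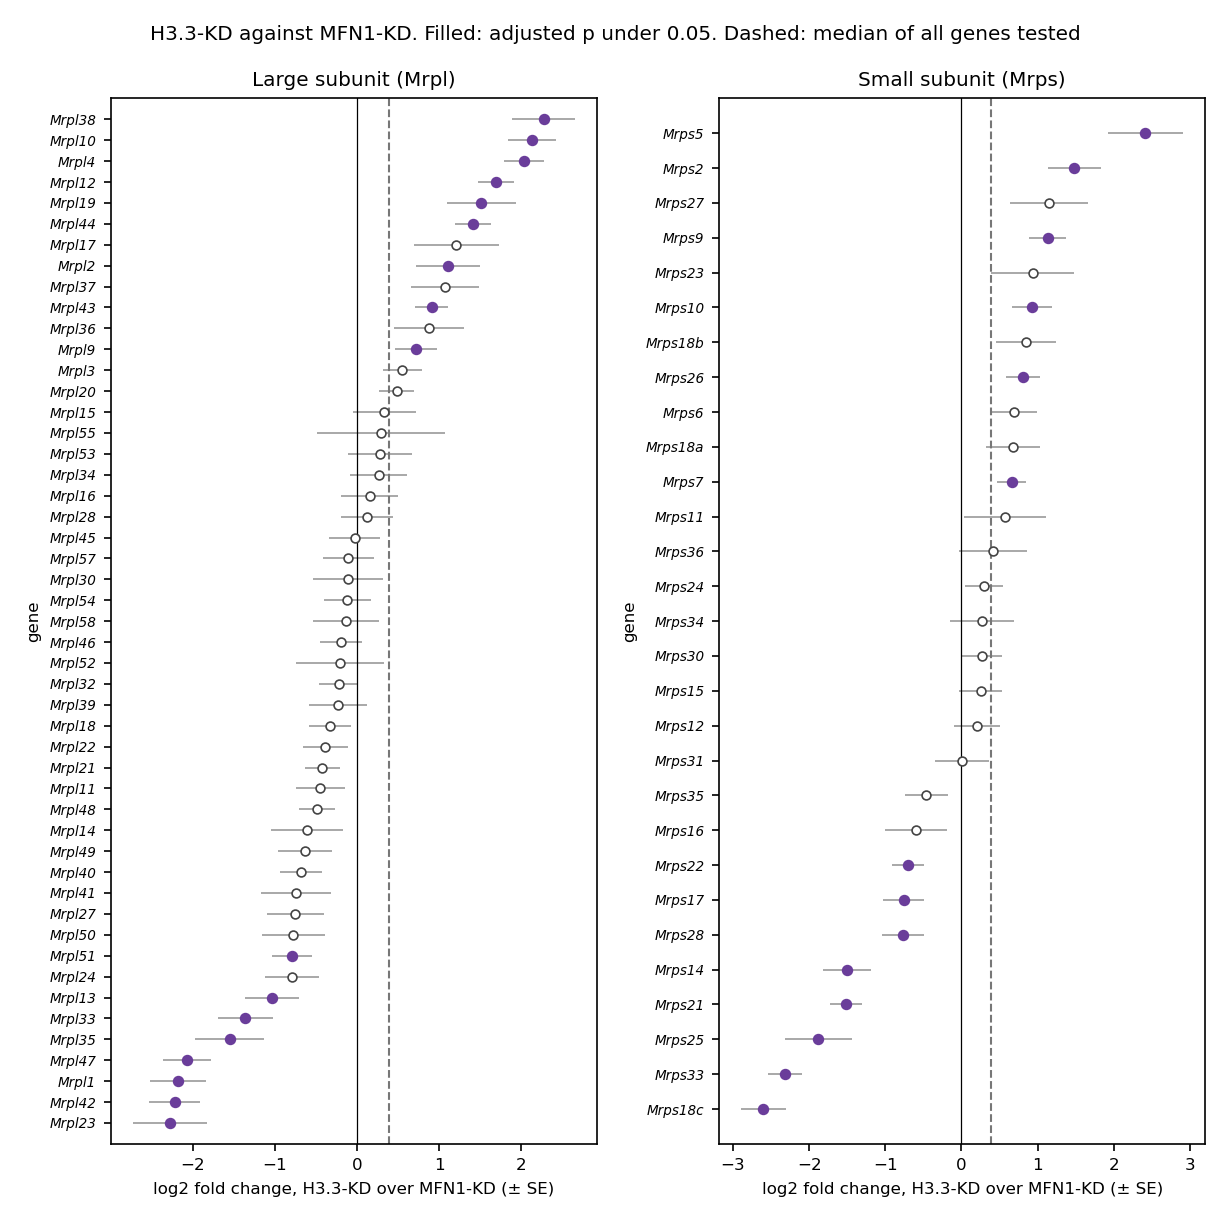
Log2 fold change of H3.3-KD over MFN1-KD with its SE for each member, large subunit left and small subunit right, filled where the adjusted p is under 0.05. Members spread from -2.60 (Mrps18c) to 2.42 (Mrps5) on both sides of the all-gene median of 0.39 (dashed).

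The subunits were also set side by side relative to the median of all genes. For MFN1-KD, the large subunit median minus that of all genes was -0.56 on the log2 scale, and that of the small subunit -0.37. With the trend over GC and length removed, the MFN1-KD differences were smaller, at -0.37 (large) and -0.27 (small). In H3.3-KD the differences in the main fit were -1.03 and -0.73, and with that trend removed -1.12 for both subunits. The difference between the subunits was not tested. With Mrps18a and Mrps30 moved to the large subunit and Mrps36 left out, the subunits held 51 and 26 genes, of which 20 and 11 fell in H3.3-KD. All 5 members that fell in MFN1-KD have a bacterial counterpart, 3 of 29 in the large and 2 of 18 in the small subunit. So do most members, 29 of 49 in the large and 18 of 29 in the small subunit, and 0 of the 5 calls passed under each alternative. At the study's criterion, 20.7% of large subunit genes with a counterpart and 20% without were downregulated in MFN1-KD. In the small subunit these shares were 27.8% and 18.2%. In H3.3-KD, 13 of 29 large subunit genes with a counterpart and 7 of 20 without one fell, as did 7 of 18 and 4 of 11 in the small subunit. Their medians were -0.68, -0.83, -0.46 and -0.46 in the same order, and in MFN1-KD -0.59, -0.64, -0.49 and -0.34.

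Fold changes were also read against base composition and level. In MFN1-KD the 26 members with the highest transcript GC content (52.5 to 60.4%) had a median of -0.82 and the 26 with the lowest (38.6 to 46.9%) a median of -0.34. In H3.3-KD the same groups had -0.67 and -1.10. Spearman's rho across the 78 members between control level and log2 fold change was 0.06 for MFN1-KD and -0.45 for H3.3-KD, against -0.22 and -0.34 across all genes tested. The same control values enter both the level and the fold change, so spread among control libraries alone pushes rho downwards. These medians and rho values are descriptions over genes of shared libraries. The part of composition and level in the results was not tested beyond the fit with the trend over GC and length removed. That fit gave 2 lower members in MFN1-KD, and 160 of 12816 genes. Exons of 33 members overlap another gene, on the other strand for 28. Mrpl9, Mrpl44, Mrps18b and Mrps25, named above, are also among them. Mrpl23 shares sequence with the pseudogene Mrpl23-ps1, listed at 33.88 to 69.09 FPKM in control and 10.66 to 40.63 FPKM in H3.3-KD, so the split of reads between them, and the fall of Mrpl23, named after its value was seen, is uncertain.

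Promoter windows were found in RefSeq for 69 of the 78 members, and 4 short motifs were searched on both strands. For a member, the window nearest its GENCODE start was taken, and for the background the first window listed for each gene. Some member windows lie far from that start, such as those of Mrpl33 (17016 bases) and Mrps24 (7979 bases). The median GC content was 58.3% in member windows and 52.7% in all windows. The part of these differences in the shares below was not tested. The ETS motif CCGGAAG, bound by GABP and related factors, was in 24 of 69 member windows (34.8%), against 9.12% of 27025 windows of all genes and 20.5% of those of genes tested here. The NRF1 core GCATGCGC was in 8 (11.6%, against 2.80% and 6.04%) and the YY1 motif AAGATGGC in 12 (17.4%, against 2.88% and 5.17%). TATAAA was in 4 (5.80%, against 14.2% and 7.14%). GABP and NRF1 are known regulators of nuclear genes for mitochondrial proteins. Members with and without the ETS motif had median log2 fold changes of -0.59 and -0.48 in MFN1-KD and of -0.80 and -0.77 in H3.3-KD. A match says only that these letters are present.

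Genes of the wider pathway were read from lists. The 5 mitoribosomal proteins with other symbols had 0 calls in MFN1-KD. In H3.3-KD, Chchd1 of the small subunit fell from 119.24, 165.38 and 189.04 to 74.72, 49.30 and 67.32 FPKM (-1.29 ± 0.25, adjusted p = 0.00388), and Gadd45gip1 of the large subunit rose (0.69 ± 0.23, adjusted p = 0.0419), a call lost under median-ratio and upper-quartile scaling and with the trend over GC and length removed. Dap3, Ptcd3 and Aurkaip1 had -0.05, -0.36 and -0.75 (adjusted p = 0.919, 0.345 and 0.223). Of 26 genes for assembly of the mitoribosome and maturation of its rRNAs, none was called in MFN1-KD. Of the same list 0 fell and 6 rose in H3.3-KD, or 23.1% against 21.8% of all genes tested, a share close to the background. The list had a median of 0.58 there, with 0.26 over all genes, and of -0.49 in the other knockdown, with -0.08 over all genes. With the trend over GC and length removed, 1 fell and 1 rose in H3.3-KD, and the median of 0.21 lay under the 0.28 of all genes. Median-ratio scaling gave 1 lower and 4 higher. Rpusd4, a pseudouridine synthase of mitochondrial rRNA, rose from 6.07, 8.03 and 5.87 to 22.60, 22.69 and 16.09 FPKM (1.48 ± 0.28, adjusted p = 0.00323), and the helicase Ddx28 rose by 1.68 ± 0.35 on the log2 scale (adjusted p = 0.00566). In MFN1-KD the smallest p were those of the GTPases Mtg1 (-2.31 ± 0.63, adjusted p = 0.0718) and Eral1 (-1.34 ± 0.37, adjusted p = 0.0742). In H3.3-KD against MFN1-KD, 16 of the 26 were higher (61.5%, against 27.6% of all genes) and 2 lower (7.69%, against 11.0%). Removal of the trend over GC and length gave 10 higher, and a median of 0.78 in place of 1.36.

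Of 15 translation factors listed, 14 were tested, of which 1 fell in MFN1-KD, while 1 fell and 3 rose in H3.3-KD. The latter shares, 7.14% and 21.4%, were close to the 9.12% and 21.8% of all genes. Of the list, 1 rose under median-ratio scaling and 1 with the trend over GC and length removed. Taco1, an activator of the translation of a cytochrome oxidase subunit, was at 3.04, 4.57 and 2.18 FPKM in control, 0, 0.15 and 0 FPKM in MFN1-KD and 8.04, 14.73 and 13.44 FPKM in H3.3-KD (-1.99 ± 0.35, adjusted p = 0.0333, and 1.61 ± 0.35, adjusted p = 0.00663). Its call in MFN1-KD was lost with the trend over GC and length removed and with only the 6 libraries compared. Tsfm, an elongation factor, had -1.19 ± 0.28 (adjusted p = 0.0507) in MFN1-KD. Slirp, which stabilizes mitochondrial mRNAs, fell in H3.3-KD (-1.54 ± 0.41, adjusted p = 0.0173). The small rRNA mt-Rnr1 was at 7997, 5293 and 4722 FPKM in control, 12578, 13003 and 10115 FPKM in MFN1-KD and 1759, 2298 and 1746 FPKM in H3.3-KD. It rose in MFN1-KD (1.02 ± 0.22, adjusted p = 0.0404), a call lost under upper-quartile scaling, with the trend over GC and length removed and with only the 6 libraries compared, and fell in H3.3-KD (-1.61 ± 0.22, adjusted p = 0.000573). The large rRNA mt-Rnr2 fell in H3.3-KD from 14004 to 15020 FPKM in control to 1895 to 2698 FPKM (-2.67 ± 0.17, adjusted p = 1.48e-05), and had 0.45 ± 0.17 (adjusted p = 0.151) in MFN1-KD. These libraries were primed on poly(A) tails, which limits what they show of rRNA.

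**Figure D4:**
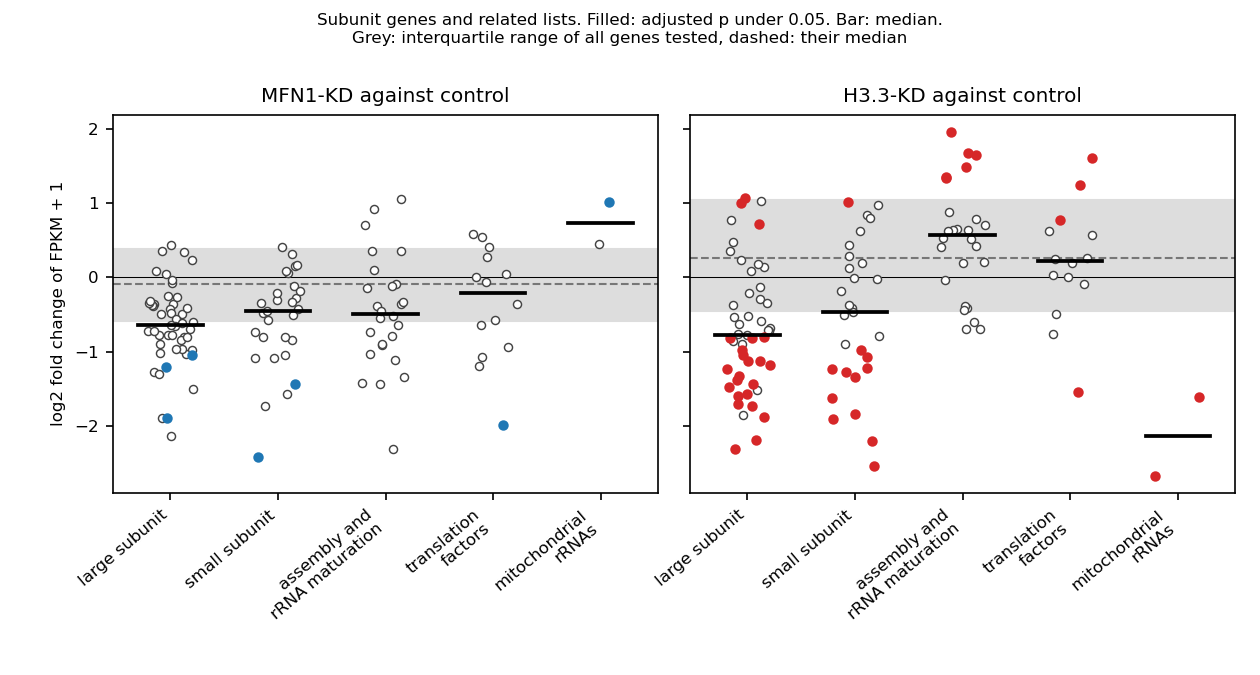
Log2 fold change against control for the members by subunit and for 3 related lists, 1 point per gene, filled where the adjusted p is under 0.05, with the median as a bar. In H3.3-KD the subunit medians (-0.77 and -0.46) lie below 0 and that of the assembly list (0.58) above, while these 3 medians lie below 0 in MFN1-KD.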

How the data were processed

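Embryo pools of 3 groups were sequenced as Smart-Seq2 libraries (paired-end). The authors trimmed reads with cutadapt 1.16, aligned them to mm10 with STAR and deposited FPKM per gene and library. The program behind the FPKM, its annotation and its strand setting are not given in the sources used here. Depth is unknown, so no counting interval was computed.

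The 13011 genes whose mean over all 9 libraries reached 1 FPKM entered the test, on log2(FPKM + 1) with limma 3.58.1 in R 4.3.3 (trend, robust), with every library in one fit, and p-values were adjusted by Benjamini-Hochberg over all of them. Fold changes are on that log2 scale and understate changes of low genes. The member rule uses symbols alone, but it, the lists and the tests were chosen with earlier results of these data known. Named genes were, per subunit and knockdown, the 5 with the smallest p and the 2 furthest in the other direction, the 3 highest and 2 lowest in control, genes of special structural place, and the 3 with the smallest p between knockdowns. Other settings of scaling, filter, pseudocount, weights, GC and length, and samples were tried. Promoter windows came from RefSeq (GRCm38.p6) and gene spans from GENCODE.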

Additional observations from a re-analysis of the deposited data

How the results depend on the processing

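Of the counts and medians, 105 values under other settings and 109 with 1 library left out kept their direction and lay within 1.5 times the count, or within the spread of the libraries, and 25 and 17 did not. Part of this agreement was fixed in advance. A median against control cannot change when a library of the other knockdown is left out. Nor can it with only the 6 libraries compared or with the replicate number as a block. In MFN1-KD the members higher, and those up at the study's criterion, were 0 in the main fit and in every alternative, which also counted as kept. The count of members lower in MFN1-KD (5) was 2 with the trend over GC and length removed, 14 with library weights, 8 with a mean of at least 10 FPKM, 0 with no filter, 0 with only the 6 libraries compared, 3 with a pseudocount of 0.1 and 22 with upper-quartile scaling. Members down at the study's criterion in MFN1-KD (17) were 9 with library weights and 40 with upper-quartile scaling. Members higher in H3.3-KD (4) were 2 with GC and length removed, 12 with library weights, 1 with median-ratio scaling, 2 with no filter, 7 with 6 libraries and 1 with upper-quartile scaling, and those up at the study's criterion (3) were 5, 0, 5 and 0 with library weights, median-ratio scaling, a pseudocount of 0.1 and upper-quartile scaling. The small subunit median in H3.3-KD relative to all genes (-0.73) was -1.12 with GC and length removed. In H3.3-KD against MFN1-KD, lower members (16) were 25 with median-ratio scaling, 10 with no filter and 10 with upper-quartile scaling, and higher members (15) were 9 with median-ratio scaling. Calls over all genes also moved, in the order given for members. Lower in MFN1-KD (286) were 160, 823, 419, 2, 0, 204 and 1084, and down (1178) were 1031 and 2494. Higher in H3.3-KD (2841) were 2160, 4734, 2118, 2621, 3470 and 2257, and up (3112) were 3499, 2254, 3030 and 2656. In the direct comparison, lower (1437) were 2120, 1057 and 964, and higher (3591) were 2720. Genes tested were 12816 with GC and length removed, 5933 at 10 FPKM, 32672 with no filter and 13011 otherwise. The cause was not tested.

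With 1 library left out, MFN1-KD gave 0 to 8 lower members and 11 to 23 down at the study's criterion. H3.3-KD gave 18 to 39 lower, 1 to 7 higher, 19 to 31 down and 1 to 5 up. The direct comparison gave 11 to 22 lower and 10 to 18 higher. Over all genes, MFN1-KD gave 0 to 517 lower and 724 to 1800 down. For H3.3-KD, 669 to 1629 genes were lower, 1763 to 3441 higher, 1062 to 1341 down and 2628 to 3184 up. Between the knockdowns, 1081 to 1582 genes were lower and 2789 to 3840 higher. Subunit medians relative to all genes ranged from -0.66 to -0.34 (large) and -0.42 to -0.34 (small) in MFN1-KD, and from -1.21 to -0.93 and -0.83 to -0.65 in H3.3-KD.

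The deviations of same-numbered libraries correlated at r from -0.05 to 0.16 over 9 pairs, and those of differently numbered libraries at -0.12 to 0.07. The highest r were those of control 2 with MFN1-KD 2 (0.16) and of MFN1-KD 3 with H3.3-KD 3 (0.14). These r were low, and the numbers were not taken as pairs in the main fit. With the replicate number as a block, 0 members were lower in MFN1-KD, 33 were lower and 4 higher in H3.3-KD, and 15 were lower and 17 higher in the direct comparison, and the calls of Taco1 and mt-Rnr1 in MFN1-KD and of Gadd45gip1 in H3.3-KD were lost. Over all genes, the block gave 25 lower in MFN1-KD, 1171 lower and 2732 higher in H3.3-KD, and 1371 and 3490 in the direct comparison. Among named members no called value changed sign. Values not called changed sign 48 times, in 26 pairs of member and comparison. Calls of named members were lost 58 times with 1 library left out and 41 times under other settings, and gained 16 and 44 times.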
